A study of Mus musculus with 8 samples.

Results

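Zcwpw1 and 8 genes that lie near it on mouse chromosome 5, Pilra, Pilrb1, Pilrb2, Mepce, Ppp1r35, Tsc22d4, Nyap1 and Agfg2, were followed in haematopoietic stem and progenitor cells with and without a deletion of Jmjd6. These 9 genes were selected from the 26146 genes of the count table by their symbols: Zcwpw1 because its counts were higher in the Jmjd6 KO libraries, and the others by their position, to ask whether that difference belonged to the region or to a single gene. All 9 were in the table, and 8 passed the filter on low counts. PolyA RNA was sequenced in bulk from sorted Lin-Sca1+Kit+ (LSK) cells, the fraction of blood-forming cells that holds the stem cells and the earliest multipotent progenitors; the labels do not name the tissue. There were 4 Jmjd6 KO mice, in which a floxed Jmjd6 was deleted by a Cre active in haematopoietic lineages, and 4 wild type mice, with 1 library per mouse. The labels do not name the Cre line or the strain, sex and age of the mice, nor whether the wild type mice carried the Cre or a floxed allele, and they give the text on the deletion for both genotypes. Levels are given as CPM, counts scaled to library size after TMM correction for library composition.

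ZCWPW1 is a histone reader with a CW domain and a PWWP domain, which bind histone H3 methylated at lysine residues. In meiotic germ cells of the mouse it recognises the pair of H3 marks that the methyltransferase PRDM9 writes at recombination hotspots, and it helps the repair of the DNA breaks made there. Its neighbours work elsewhere in the cell: MEPCE caps the 7SK RNA that holds the elongation factor P-TEFb inactive, and PILRA and the PILRB proteins are paired receptors of myeloid cells. JMJD6, whose gene was targeted here, is a JmjC-domain oxygenase.

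On build mm10 (GENCODE M21 positions), Zcwpw1 lies on the plus strand of chromosome 5 from 137787798 to 137822621 (ENSMUSG00000037108.13). Mepce lies on the opposite strand from 137781906 to 137787655, head to head with Zcwpw1, and 142 bases separate the outermost annotated starts. At its other end Zcwpw1 overlaps Pilra (137821952 to 137836281, minus strand) by 670 bases. Pilrb1 (137852147 to 137858106) and Pilrb2 (137865827 to 137871815) follow on the minus strand. On the Mepce side lie Ppp1r35 (137778849 to 137780110, plus strand), Tsc22d4 (137745730 to 137768450, plus strand), Nyap1 (137729899 to 137741607, minus strand) and Agfg2 (137650463 to 137684726, minus strand), which 103071 bases separate from Zcwpw1.

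The stretch between Mepce and Zcwpw1 is shown because both genes start at its edges, and the groups overlapped for Mepce and not for Zcwpw1. It is taken from the RefSeq promoter record of Zcwpw1 (GRCm38.p6, plus strand, chr5:137787656-137787797), and RefSeq places the outer end of Zcwpw1 further towards Mepce than GENCODE does. Capitals mark the match to the motif of the transcription factor NRF1.
Mepce to Zcwpw1: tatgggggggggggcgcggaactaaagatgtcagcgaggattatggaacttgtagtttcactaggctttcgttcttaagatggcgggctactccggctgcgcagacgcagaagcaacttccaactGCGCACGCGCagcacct
The 142 bases hold 11 CpG dinucleotides. Of 8 motifs searched on both strands, NRF1 had 1 match, the bases in capitals, and 3.01% of 32817 RefSeq promoter records hold it in the same length before the start. The motifs with no match in this window were YY1, the GC box (GGGCGG), the CCAAT box (CCAAT), ETS (CCGGAAGT), CRE (TGACGTCA), the TATA box (TATAAA) and E2F (TTTCGCGC), which 0.213%, 28.1%, 23.6%, 2.37%, 1.33%, 7.3% and 0.152% of the records hold. Only full matches were counted, and the stretch holds every base of the searched YY1 motif except the last. With a single full match, no motifs overlap in the stretch shown.

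The stretches before Pilra and Pilrb2 are shown because they are nearly the same sequence before genes whose counts differed. Both are read 5′ to 3′ on the minus strand from RefSeq promoter records (GRCm38.p6), at chr5:137836282-137836474 for Pilra and chr5:137871816-137872008 for Pilrb2, and capitals mark where they differ.
Pilra: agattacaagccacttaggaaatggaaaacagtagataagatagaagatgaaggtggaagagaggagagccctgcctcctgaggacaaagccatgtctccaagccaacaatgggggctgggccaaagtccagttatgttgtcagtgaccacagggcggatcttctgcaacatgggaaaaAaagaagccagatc
Pilrb2: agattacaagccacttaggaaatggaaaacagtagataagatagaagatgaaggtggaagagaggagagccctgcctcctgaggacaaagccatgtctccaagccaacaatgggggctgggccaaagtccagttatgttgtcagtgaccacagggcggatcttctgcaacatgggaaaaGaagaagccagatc
They differ at 1 of 193 bases, and Pilrb1 differs from Pilra at 4 of 193. The longest coding transcripts are less alike between Pilra and Pilrb2, with 73.4% of the aligned bases the same, and 95.8% are the same between Pilrb1 and Pilrb2, so the split of reads between the Pilrb genes is uncertain.

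Total counts ran from 9964528 to 13516922 in the KO libraries and from 9344779 to 15079960 in the wild type libraries. Jmjd6 itself stood at 27.5 to 30.7 CPM in the KO libraries and at 52.5 to 63.7 CPM in the wild type libraries, and the labels do not say which exons were floxed. Jmjd6 KO replicate 3 stood apart from the other 7 libraries on the first principal component, and it and wild type replicate 4 were the libraries with Xist and no Y-linked counts. Wild type replicate 1 stood apart in the summed markers of erythroid cells and granulocyte progenitors, given with Zcwpw1. Kit and Ly6a, the genes of the gate, were present at 416 to 508 and 105 to 227 CPM in the KO libraries and at 446 to 500 and 86.1 to 208 CPM in the wild type libraries. The 10 listed LSK gate markers, which include both, are given with Zcwpw1. Cd3e of T cells and Ly6g of neutrophils had 1 and 4 counts in the 8 libraries together. In bulk RNA, fewer cells of a type and less RNA per cell cannot be told apart.

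Zcwpw1 stood at 37.8, 38.1, 47.0 and 39.5 CPM in Jmjd6 KO replicates 1 to 4, against 17.4, 19.0, 13.1 and 13.6 CPM in wild type replicates 1 to 4. The groups did not overlap, and the lowest KO library was KO replicate 1 and the highest wild type library wild type replicate 2. The mean was 40.6 ± 4.3 CPM in KO cells and 15.8 ± 2.9 CPM in wild type cells (SD, n = 4 each), a ratio of 2.58. In edgeR's quasi-likelihood fit over 13439 genes the log2 fold change was 1.37, and its 95% interval ran from 0.95 to 1.78. These values chose the gene, at an adjusted p of 0.0277 by edgeR, and are given as a description. The last gene inside the threshold of 0.05 was Jmjd6, at an adjusted p of 0.0381 by edgeR, and the next outside it was 2410018L13Rik, at 0.0845. Over all genes 8 were called, or 0.0595%, with 0.0298% in each direction.

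The size of the Zcwpw1 difference moved little with any single library. Without each of the 8 libraries in turn the log2 fold change lay between 1.29 and 1.47, and it was 1.22 when the pair without Y-linked counts was left out (adjusted p = 0.105 by edgeR). With 1 library left out the adjusted p by edgeR was under 0.05 in 1 of 8 fits, at 0.0401 without Jmjd6 KO replicate 3. It lay between 0.0602 and 0.176 in the others, with the highest value without wild type replicate 3. The spread between mice was 10.6% of the mean in KO cells and 18.4% in wild type cells.

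Marker sums of the LSK gate and of other blood cells were read beside Zcwpw1. The 10 LSK gate markers summed to 2970 to 3300 CPM in the KO libraries and 3070 to 3850 CPM in the wild type libraries, with overlap. Of these, 8 had a log2 fold change below 0 and 2 above. At an unadjusted p under 0.05 by edgeR there were 3, where 6.06% of all genes had such a p. They were Hlf at -0.65, Mecom at -0.58 and Slamf1 at 0.93 (adjusted p = 0.489, 0.811 and 0.67 by edgeR). The 8 T and NK cell markers summed to 14.6 to 23.9 CPM in the KO libraries and 6.58 to 13.2 CPM in the wild type libraries, with no overlap. Most of that was Cd4, at 15.7 ± 4.18 CPM in KO and 7.62 ± 3.09 CPM in wild type (SD, n = 4 each; adjusted p = 0.583 by edgeR), while Cd3e was at 0 in every KO library. The 6 mast cell and basophil markers summed to 55.3 to 121 CPM in KO, against 68.4 CPM in wild type replicate 1 and 8.58 to 42.9 CPM in wild type replicates 2 to 4, so the overlap rested on 1 library. Both tested members of that list, Cpa3 and Mcpt8, had an unadjusted p under 0.05 by edgeR, with log2 fold changes of 1.31 and 1.08 (adjusted p = 0.811 and 0.67 by edgeR). The 8 B cell markers summed to 97.5 to 152 CPM in KO and 68.5 to 109 CPM in wild type, with overlap.

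By log2 fold change, erythroid markers lay the other way from the tested markers of T and NK cells, mast cells and basophils, and B cells. All 10 erythroid markers had a log2 fold change below 0, with a median of -1.12. At an unadjusted p under 0.05 by edgeR there were 4, where 6.06% of all genes had such a p. Of the 10, 0 passed by edgeR, and the lowest adjusted p was 0.501, for Tspan33. The erythroid sums ran from 40.6 to 68.3 CPM in KO, against 574 CPM in wild type replicate 1 and 39.0 to 90.2 CPM in wild type replicates 2 to 4. The groups overlapped, with 42.7 and 39.0 CPM in wild type replicates 2 and 3. Granulocyte progenitor markers summed to 1550 to 2380 CPM in KO, against 5310 CPM in wild type replicate 1 and 974 to 1250 CPM in wild type replicates 2 to 4. Megakaryocyte markers summed to 131 to 167 CPM in KO and 100 to 225 CPM in wild type. Dendritic cell markers summed to 519 to 750 CPM in KO and 543 to 760 CPM in wild type. Most of that was Flt3, also an LSK gate marker, at 543 ± 101 CPM in KO and 553 ± 117 CPM in wild type (SD, n = 4 each). Of 5 tested dendritic cell markers 2 lay above 0 and 3 below. The lowest was Ccr9, at -1.75 (adjusted p = 0.558 by edgeR). In that list 0 passed by edgeR and DESeq2 called 1, where it called 0.471% of all genes. Each marker of these lists had a count in some library. Without wild type replicate 1 the log2 fold change of Zcwpw1 was 1.44, and the part of the other cell types in it was not tested.

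**Figure D1:**
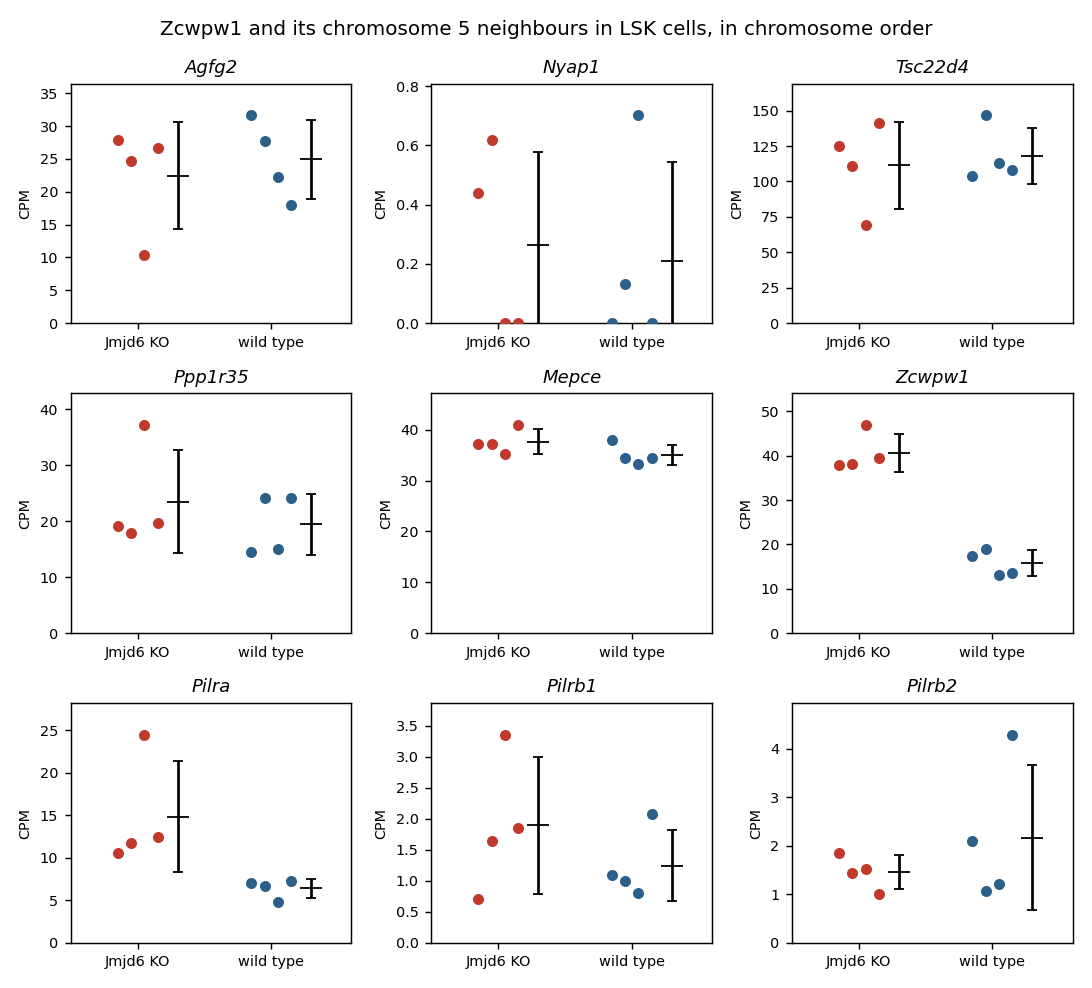
CPM of the 9 genes in each library, in chromosome order, with Jmjd6 KO at the left of each panel and wild type at the right; points are mice and the bar beside them is the mean ± SD (n = 4 each), cut off at 0. Zcwpw1 and Pilra are the genes whose groups do not overlap, and Jmjd6 KO replicate 3 is the highest point of Pilra, at 24.5 CPM, and of Ppp1r35, at 37.2 CPM.

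Mepce, the gene that starts 142 bases from Zcwpw1, stood at nearly the same level in every library. It had 37.2, 37.2, 35.2 and 41.0 CPM in Jmjd6 KO replicates 1 to 4, against 37.9, 34.4, 33.2 and 34.5 CPM in wild type replicates 1 to 4. The groups overlapped, and the spread between mice was 6.37% of the mean in KO cells and 5.69% in wild type cells. Its log2 fold change was 0.11 (adjusted p = 0.904 by edgeR), and the 95% interval of its fold change ran from 0.859 to 1.35. The interval of the fold change of Zcwpw1 ran from 1.93 to 3.43.

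The ratio of Zcwpw1 to Mepce counts within a library needs no scaling between libraries. It was 1.02, 1.02, 1.33 and 0.964 in Jmjd6 KO replicates 1 to 4, against 0.461, 0.55, 0.393 and 0.393 in wild type replicates 1 to 4. Zcwpw1 thus had about as many counts as Mepce in the KO libraries and fewer in each wild type library, with mean ratios of 1.08 ± 0.168 in KO and 0.449 ± 0.0745 in wild type (SD, n = 4 each). As Zcwpw1 was chosen for its difference, these ratios were not tested.

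**Figure D2:**
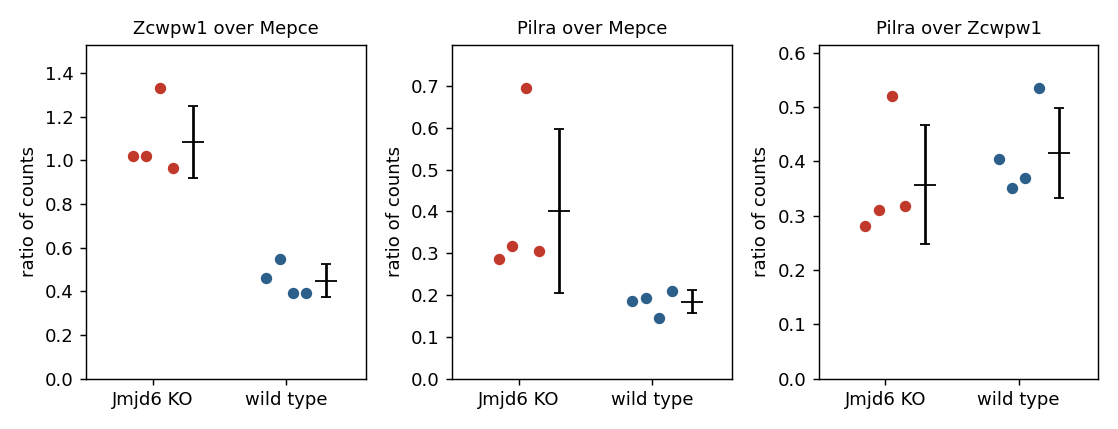
Ratios of raw counts within each library for Zcwpw1 over Mepce, Pilra over Mepce and Pilra over Zcwpw1, with Jmjd6 KO left of wild type; points are mice and bars are the mean ± SD (n = 4 each). Both ratios to Mepce separate the groups, while Pilra over Zcwpw1 overlaps, at 0.281 to 0.521 in KO libraries and 0.351 to 0.535 in wild type libraries.

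Pilra encodes an inhibitory receptor that recruits phosphatases through its cytoplasmic motifs. Pilra stood at 10.6, 11.8, 24.5 and 12.5 CPM in Jmjd6 KO replicates 1 to 4, against 7.07, 6.65, 4.82 and 7.25 CPM in wild type replicates 1 to 4. Every KO library lay above every wild type library, and KO replicate 3 lay far above the other KO libraries. The log2 fold change was 1.20 (SE 0.303), and it did not pass over all genes by edgeR, at an adjusted p of 0.429. A two-sided exact permutation test of its mean log2 CPM gave p = 0.0286, the lowest value possible with 4 libraries in each group, and in 4.19% of all tested genes the groups did not overlap either. DESeq2, which called 0.471% of the 15283 genes with an adjusted p, called Pilra at 0.0375, while limma voom gave 0.144. Without KO replicate 3 the log2 fold change of Pilra was 0.85, with an adjusted p of 0.421 by edgeR.

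Pilra and Zcwpw1 share exon bases on opposite strands. The principal transcript of Zcwpw1 in the annotation has 2222 exon bases, of which 468, or 21.1%, are also exon bases of Pilra. All 468 lie in the UTR of the principal Pilra transcript and are 18.2% of its exon bases, while in Zcwpw1 311 of them are coding and 157 lie in the UTR. Were the counts of Zcwpw1 spread evenly along its principal transcript, the shared bases would hold 8.55 CPM in KO cells and 3.33 CPM in wild type cells, a difference of 5.22 CPM. Spread over all 5697 annotated exon bases of Zcwpw1 instead, they would hold 3.34 CPM in KO cells and 1.3 CPM in wild type cells, a difference of 2.04 CPM. The difference of the Pilra means was 8.45 CPM. Whether counting used strand is not stated in the labels, so reads of the shared bases may not have been told apart, and their part in the Pilra difference was not tested. The ratio of Pilra to Zcwpw1 counts was 0.358 ± 0.11 in KO cells and 0.415 ± 0.083 in wild type cells (SD, n = 4 each), with overlap between the groups.

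Pilrb1 and Pilrb2 encode activating receptors that signal through the adaptor TYROBP (DAP12). Both had few reads, with 92 and 68 counts in the 4 KO libraries together and 66 and 115 in the 4 wild type libraries together. Pilrb1 stood at 0.704, 1.65, 3.36 and 1.86 CPM in Jmjd6 KO replicates 1 to 4, against 1.1, 0.998, 0.803 and 2.08 CPM in wild type replicates 1 to 4. Its groups overlapped, its log2 fold change was 0.59 (adjusted p = 0.85 by edgeR), and it was 0.15 without KO replicate 3. Pilrb2 stood at 1.85, 1.44, 1.53 and 1.01 CPM in Jmjd6 KO replicates 1 to 4, against 2.1, 1.06, 1.21 and 4.29 CPM in wild type replicates 1 to 4. Its groups overlapped too, and its log2 fold change of -0.58 (adjusted p = 0.85 by edgeR) was 0.01 without wild type replicate 4, its highest library. The 95% intervals, from -0.55 to 1.72 and from -1.68 to 0.51, leave room for sizeable changes of either gene in both directions.

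The Pilr receptors are myeloid genes, so the markers of monocytes and macrophages were read beside them. All 10 listed markers had counts, and their summed level was 482 to 680 CPM in the KO libraries, against 648 CPM in wild type replicate 1 and 449 to 474 CPM in wild type replicates 2 to 4. All KO sums thus lay above all wild type sums but that of replicate 1. Most of the sum was a single gene, Lyz2, at 453 ± 73.4 CPM in KO and 348 ± 30.5 CPM in wild type (SD, n = 4 each). The highest KO sum was that of KO replicate 3, which also had the most Pilra. The list was mixed, with 5 members above 0 and 5 below: Cd68 and Lyz2 had log2 fold changes of 0.73 and 0.38 (unadjusted p = 0.0168 and 0.0284 by edgeR), while Csf1r, the macrophage growth factor receptor gene, gave -0.41 and was lowest in KO replicate 3, at 13.4 CPM. Neutrophil markers summed to 18.4 to 46.1 CPM in KO, against 110 CPM in wild type replicate 1 and 9.11 to 15.9 CPM in wild type replicates 2 to 4. Of 6 tested neutrophil markers 5 lay above 0 and 1, S100a8, below it at -0.99. At an unadjusted p under 0.05 by edgeR there were 3, where 6.06% of all genes had such a p. They were Camp at 1.28, Ngp at 1.05 and Cxcr2 at 0.98 (adjusted p = 0.741, 0.786 and 0.772 by edgeR). In the monocyte and macrophage list and the neutrophil list 0 passed by edgeR. Without wild type replicate 1 the log2 fold change of Pilra was 1.27. Their part in the Pilra values was not tested.

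Ppp1r35, a regulator of protein phosphatase PP1 that is needed for centriole elongation, stood at 19.2, 17.8, 37.2 and 19.7 CPM in Jmjd6 KO replicates 1 to 4, against 14.5, 24.1, 15.0 and 24.1 CPM in wild type replicates 1 to 4. KO replicate 3 lay above all other libraries, and the other KO libraries lay inside the wild type range. The log2 fold change was 0.27 (adjusted p = 0.874 by edgeR), and -0.04 without KO replicate 3.

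Tsc22d4, a leucine zipper protein gene of the TSC22 family, had 125, 111, 69.4 and 141 CPM in Jmjd6 KO replicates 1 to 4, against 104, 147, 113 and 108 CPM in wild type replicates 1 to 4. The 95% interval of its log2 fold change of -0.08 ran from -0.54 to 0.38. Agfg2, which encodes a protein with an Arf GAP domain and FG repeats, had 27.9, 24.7, 10.4 and 26.7 CPM in Jmjd6 KO replicates 1 to 4, against 31.7, 27.8, 22.2 and 18.0 CPM in wild type replicates 1 to 4. The interval of its log2 fold change of -0.15 ran from -0.81 to 0.50. In both genes the groups overlapped and KO replicate 3 was the lowest library, and without it the log2 fold changes were 0.09 and 0.09. The adjusted p by edgeR was 0.95 for Tsc22d4 and 0.932 for Agfg2.

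Nyap1, an adaptor of PI3 kinase signalling known from neurons, had 11 counts in the KO libraries together and 9 in the wild type libraries together. It did not pass the filter and was not tested. It had 0 counts in Jmjd6 KO replicates 3 and 4 and in wild type replicates 1 and 4.

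Of the 8 neighbours, 7 were tested, and 0 passed by edgeR, 1 (Pilra) by DESeq2 and 0 by limma voom. At an unadjusted p under 0.05 by edgeR there was 1, Pilra, where 6.06% of all genes had such a p. The background of calls by edgeR was 0.0595% and that by limma voom 0.231%.

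**Figure D3:**
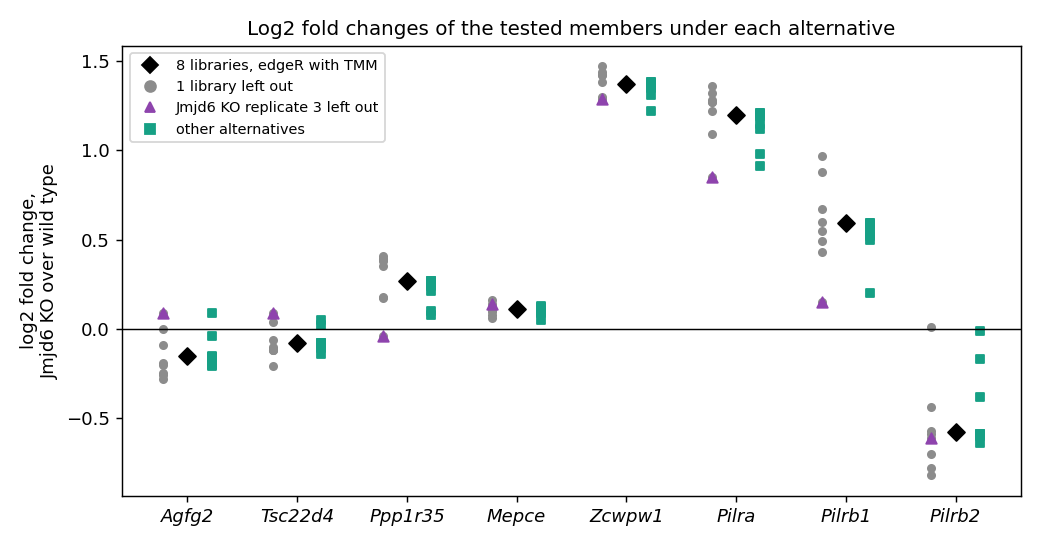
Log2 fold change, Jmjd6 KO over wild type, of the 8 tested genes in chromosome order, in the edgeR fit of all libraries, with 1 library left out, and under the other alternatives. Zcwpw1 lies between 1.22 and 1.47 and Mepce between 0.05 and 0.16 throughout, while leaving out Jmjd6 KO replicate 3 takes Pilra to 0.85 and Ppp1r35 to -0.04.

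Per kilobase of annotated exons, the levels of the genes in KO cells ran in the order Ppp1r35, Tsc22d4, Mepce, Zcwpw1, Agfg2, Pilra, Pilrb1, Pilrb2 and Nyap1. The means were 21.6, 14.9, 10.6, 7.13, 5.87, 4.81, 0.966, 0.743 and 0.0504 CPM per kb. In wild type cells the order was Ppp1r35, Tsc22d4, Mepce, Agfg2, Zcwpw1, Pilra, Pilrb2, Pilrb1 and Nyap1, at 17.9, 15.7, 9.85, 6.52, 2.77, 2.09, 1.11, 0.637 and 0.0399 CPM per kb. By this length Zcwpw1 thus stood above Agfg2 in the KO means and below it in the wild type means. The order may change with the length used, as Zcwpw1 has 5697 annotated exon bases and its principal transcript 2222. Pilrb1 and Pilrb2 have the same annotated exon length, their libraries overlapped in both groups, and their order is not resolved by these data.

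The region was then widened to every annotated gene within 1 Mb of Zcwpw1, a rule of position that uses no measured value. Of 121 such genes, 77 were in the count table and 56 were tested. Of these 27 had a log2 fold change above 0 and 29 one below 0. The median was -0.03 in the region and 0.00 over all tested genes. By edgeR 0 of the 56 passed, with 7 at an unadjusted p under 0.05, or 12.5% against 6.06% of all genes; DESeq2 called 1, Pilra, and limma voom 0. The groups did not overlap in 4 of the 56, or 7.14% against 4.19% of all genes, and 3 of these were higher in KO.

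Beside Pilra, the smallest p-values among the higher genes of the region belonged to Gal3st4 and Mblac1. Gal3st4, a galactose sulfotransferase gene 485 kb from the Zcwpw1 start, had 9.68, 10.6, 15.0 and 8.99 CPM in Jmjd6 KO replicates 1 to 4, against 7.51, 5.25, 3.41 and 6.81 CPM in wild type replicates 1 to 4 (log2 fold change 0.94, adjusted p = 0.67 by edgeR). Mblac1, a nuclease gene of the metallo-beta-lactamase fold, averaged 13.2 ± 2.66 CPM in KO and 8.09 ± 0.801 CPM in wild type (SD, n = 4 each; adjusted p = 0.673 by edgeR). Neither gene adjoins Zcwpw1, and the genes between them and Zcwpw1 lay on both sides of 0.

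The smallest p-values among the lower genes belonged to Sap25, Ache and Gm20605. Sap25, which encodes a component of the SIN3 corepressor, had 31.1, 28.5, 25.7 and 23.5 CPM in Jmjd6 KO replicates 1 to 4, against 44.1, 48.1, 41.1 and 36.5 CPM in wild type replicates 1 to 4. Its groups did not overlap, and its log2 fold change was -0.64 (adjusted p = 0.489 by edgeR). Ache, the acetylcholinesterase gene, gave -1.18 (adjusted p = 0.783 by edgeR) with overlapping groups. Gm20605, whose annotated span covers nearly all of Lrch4 and of Sap25, gave -0.38 (adjusted p = 0.811 by edgeR), and the reads of these 3 genes may not have been told apart.

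**Figure D4:**
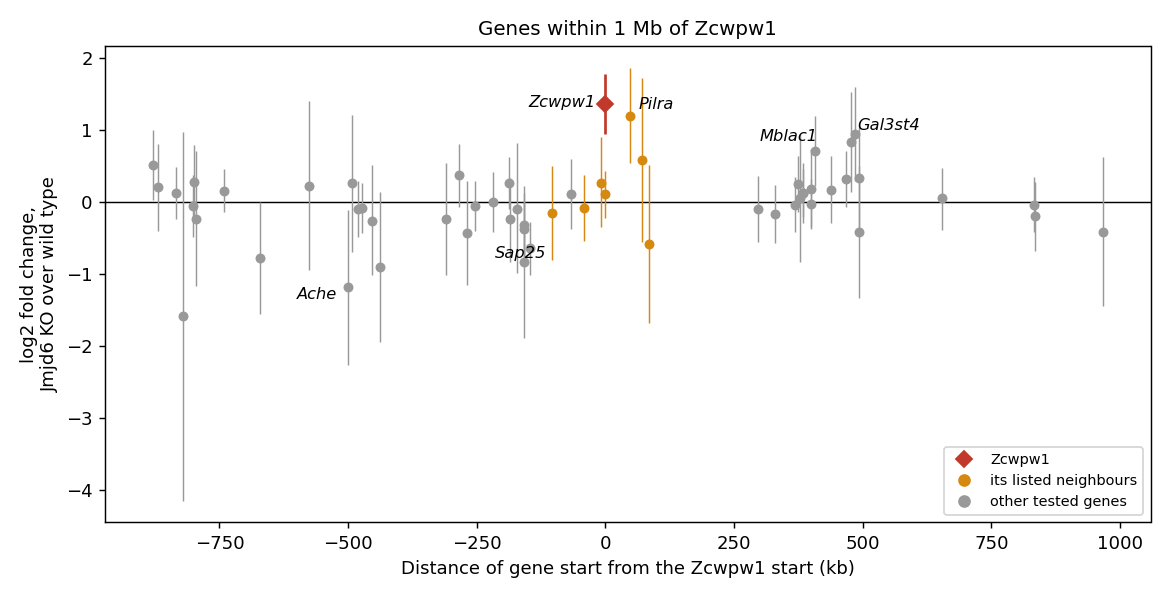
Log2 fold change, Jmjd6 KO over wild type, with its 95% interval from the edgeR fit, of Zcwpw1 and the 56 tested genes within 1 Mb, against the distance of each gene's start from that of Zcwpw1 in kb. Zcwpw1 at 1.37 and Pilra at 1.20 stand next to each other, and the other listed neighbours have intervals that include 0.

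The genes that work with ZCWPW1 in meiosis were read from a list of the PRDM9 pathway. Of 35 listed genes 23 were tested, and 0 passed by edgeR, DESeq2 or limma voom, with 0 at an unadjusted p under 0.05 by edgeR. Their median log2 fold change was 0.07. Prdm9, the writer of the marks that ZCWPW1 reads, was present at 7.68 ± 0.841 CPM in KO cells and 5.53 ± 1.54 CPM in wild type cells (SD, n = 4 each; log2 fold change 0.46, adjusted p = 0.832 by edgeR). Spo11, whose product cuts the DNA at hotspots, gave -0.62, Cxxc1, a binder of unmethylated CpG, gave -0.30, and Swi5, a recombination mediator, gave 0.24, each with an adjusted p of 0.832 by edgeR. Zcwpw2, the paralogue of Zcwpw1, had 7 counts in KO and 11 in wild type and was not tested.

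Of 14 listed genes of the synaptonemal complex and meiotic cohesin, 6 were tested. By edgeR 1 passed, with 2 at an unadjusted p under 0.05 where 6.06% of all genes had such a p, and DESeq2 and limma voom called 1 each. The gene that passed by edgeR was Syce1, with 204 counts in the KO libraries together and 2 in the wild type libraries together (adjusted p = 0.0238 by edgeR). With so few wild type counts it passed the filter on low counts only through the KO libraries, so its call is a description. The other with an unadjusted p under 0.05, Syce2, a partner of SYCE1 in the central element, gave a log2 fold change of 0.58 (adjusted p = 0.772 by edgeR). Stag3, a meiotic cohesin gene 492.4 kb from the Zcwpw1 start, gave 0.34, and Rec8, another cohesin gene, gave -0.30, with adjusted p of 0.862 and 0.845 by edgeR.

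Genes that share a domain with Zcwpw1 were also measured. Of 7 other CW domain genes 4 were tested, with 0 calls by any of the 3 tools, 0 at an unadjusted p under 0.05 by edgeR and a median of -0.09. Their log2 fold changes ran from -0.30 for Morc4 to 0.19 for Morc2a. Of 22 other PWWP domain genes 19 were tested, with 0 calls by any of the 3 tools and a median of -0.02. An unadjusted p under 0.05 by edgeR was found for 1, against 6.06% of all genes. That gene was Hdgf, a growth factor gene, at 0.30 (adjusted p = 0.786 by edgeR), and Dnmt3a, a DNA methyltransferase, gave -0.30 (adjusted p = 0.832 by edgeR).

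The partners of the neighbours gave 0 calls by edgeR, DESeq2 or limma voom. Among 20 genes of the 7SK particle and pause release the median was -0.02. At an unadjusted p under 0.05 by edgeR there was 1, where 6.06% of all genes had such a p. That gene was Hexim2, an inhibitor of P-TEFb, at 7.85 ± 1.68 CPM in KO and 4.2 ± 1.33 CPM in wild type (SD, n = 4 each; adjusted p = 0.746 by edgeR). Hexim1, its paralogue, gave a log2 fold change of 0.02, and Larp7, which binds the 7SK RNA together with MEPCE, gave 0.19. Among 12 tested genes of paired receptor signalling the median was 0.01. An unadjusted p under 0.05 by edgeR was found for 1, against 6.06% of all genes. It was Hcst, the adaptor gene beside Tyrobp, at a log2 fold change of 0.76 (adjusted p = 0.67 by edgeR). Tyrobp itself stood at 64.4 ± 11.7 CPM in KO and 51.5 ± 4.28 CPM in wild type (SD, n = 4 each; adjusted p = 0.832 by edgeR).

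Among 16 genes of centriole elongation the median was -0.02. An unadjusted p under 0.05 by edgeR was found for 1, against 6.06% of all genes. That gene was Poc5, a centriole protein gene, at a log2 fold change of 0.46 (adjusted p = 0.772 by edgeR). The 8 tested genes of the TSC22 family and its partners had a median of 0.03, the 8 around Nyap1 and PI3 kinase -0.04, and the 16 around Agfg2 -0.06. In these lists 0 had an unadjusted p under 0.05 by edgeR.

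The genes whose profile over the 8 libraries was most like that of Zcwpw1 were found among 12215 genes with a mean log2 CPM above 1. Likeness was the root mean square difference of log2 CPM after each gene was centred on its wild type mean. Clec10a, a lectin gene of macrophages and dendritic cells on chromosome 11, was the closest at 0.215 log2 units, with 16.3 ± 1.31 CPM in KO and 6.28 ± 1.48 CPM in wild type (SD, n = 4 each). St8sia6, a sialyltransferase gene, followed at 0.253, Hist1h1d, a linker histone gene, at 0.266, Commd10, a COMM domain gene, at 0.297, and 9030407P20Rik at 0.310. Of these 5 genes, Commd10 passed by edgeR, at an adjusted p of 0.0277. None of the 5 lies on chromosome 5.

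Pilra was the seventh closest of all genes, at 0.341 log2 units. Mepce was at 0.915, Ppp1r35 at 0.867, Tsc22d4 at 1.12 and Agfg2 at 1.24. The measure includes the shift between KO and wild type libraries, so these distances largely restate the fold changes above.

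**Figure D5:**
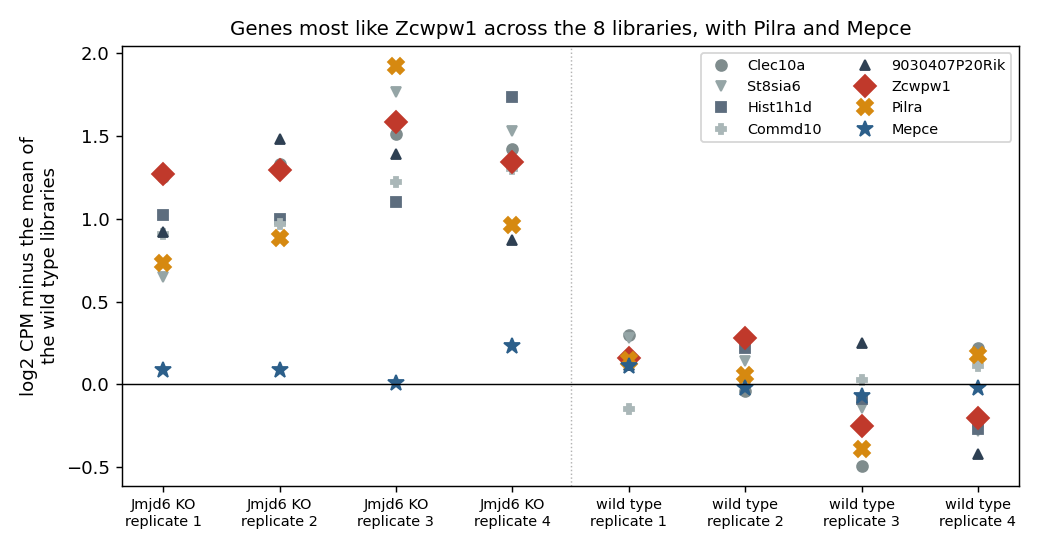
Log2 CPM minus the gene's wild type mean in each library, for Zcwpw1, the 5 genes most like it, Pilra and Mepce, with the Jmjd6 KO libraries at the left and the wild type libraries at the right. Zcwpw1 lies between 1.27 and 1.58 in the KO libraries and between -0.25 and 0.28 in the wild type libraries, and Mepce stays between -0.07 and 0.23.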

How the data were processed

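The authors deposited raw counts, whole numbers by gene symbol, for the 8 libraries. Reads were aligned with HISAT2 to mm10, per the submitters' processing notes. No source used here gives the counting tool, its annotation or whether it used strand, so overlapping and near-identical genes may share reads. The 9 genes and the gene lists were chosen with earlier results of these data known.

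The test was edgeR 4.0.16 (quasi-likelihood, R 4.3.3, TMM, filterByExpr with min.count 10 and min.total.count 15), Jmjd6 KO against wild type over 13439 genes with no covariate, Benjamini-Hochberg adjustment and a threshold of 0.05. The SE is the log2 fold change over the root of its F. Log2 CPM used a prior count of 2. P-values measure the spread between mice, 1 library each, and no 2 replicates agreed within sampling noise (chi-square per degree of freedom at least 6.89). Alternatives were other scalings, filters and windows, limma voom with sample weights (limma 3.58.1), DESeq2 1.42.0, a replicate block and left-out libraries. The script was checked on data with known changes.

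Genes named were the members, Jmjd6, overlapping genes, the 3 smallest p in each direction within 1 Mb, up to 4 per list, fixed partners and the 5 genes most like Zcwpw1; for lists, a selection of these is given. 6330418K02Rik, Csf1r, Morc2a, Lrch4, 2410018L13Rik and cell type markers were named after their values were seen or as markers. Promoter sequences come from RefSeq GRCm38.p6, in which 7 of the 9 genes had a record.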

Additional observations from a re-analysis of the deposited data

Results flagged for a closer look

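Of 18 groups of 4 libraries, 2 held a library far from the others of its group, where chance flags about 1 group in 20. Both were Jmjd6 KO replicate 3, the library that also stood apart over all genes: Pilra at 24.5 CPM, where KO replicates 1, 2 and 4 had 10.6 to 12.5 CPM, and Ppp1r35 at 37.2 CPM, where they had 17.8 to 19.7 CPM.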

How the results depend on the processing

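The count of 8 called genes was 3 with the replicate block, 4 among the 6 libraries with Y-linked counts, 31 by limma voom, 72 by DESeq2, and between 2 and 8 with 1 library left out. Zcwpw1 lost its call with the block (log2 fold change 1.38, adjusted p = 0.327 by edgeR) and among the 6 libraries (1.22, adjusted p = 0.105 by edgeR). It kept its call in 1 of 8 fits with 1 library left out, where the log2 fold change ran from 1.29 to 1.47. Within 1 Mb the calls were 0 in each fit run except DESeq2, which called 1. With 1 library left out, uncalled neighbours ranged from -0.82 to 0.01 (Pilrb2), -0.04 to 0.41 (Ppp1r35), -0.21 to 0.09 (Tsc22d4) and -0.28 to 0.09 (Agfg2). Signs changed for Pilrb2 without wild type replicate 4, for Ppp1r35, Agfg2 and Tsc22d4 without Jmjd6 KO replicate 3, for Agfg2 by limma voom (0.09), and for Tsc22d4 without wild type replicate 2 (0.04), among the 6 libraries (0.05) and by limma voom (0.02). The cause was not tested. The labels name no batch or pairing. Same-numbered libraries did not deviate together (correlations 0.0322, -0.0122, -0.184 and -0.192), and 0 of 4 KO libraries correlated best with its own number. With 4 libraries in each group these correlations cannot show whether same-numbered libraries shared a batch. At these depths changes of Pilrb1, Pilrb2 and Nyap1 were not resolved.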

Other observations

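Of 8 listed germ cell markers, 6 had next to no counts in LSK cells: Dppa3, Mael, Tex101, Stra8, Piwil1 and Tdrd1 had 0 to 10 counts in the KO libraries together and 0 to 5 in the wild type libraries together. The other two are described here after their values were seen. Ddx4, an RNA helicase gene of germ cells, stood at 18.9 ± 6.77 CPM in KO cells and 34.9 ± 15.7 CPM in wild type cells (SD, n = 4 each; log2 fold change -0.88, adjusted p = 0.811 by edgeR), with overlapping groups. Dazl reached 4.5 CPM in Jmjd6 KO replicate 3, against at most 0.528 CPM in the other KO libraries and 0.603 CPM in the wild type libraries.

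The antisense gene 6330418K02Rik, which overlaps Gal3st4, stood at 12.1 ± 3.77 CPM in KO cells and 6.81 ± 2.45 CPM in wild type cells (SD, n = 4 each; log2 fold change 0.83, adjusted p = 0.772 by edgeR). Its start and that of Gal3st4 lie 476.2 and 485 kb from that of Zcwpw1.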
